A study of Oryza sativa with 16 samples.

Results

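In ChIP-seq of the rice protein OsHOX24, 7 windows of 100 kb together took up between 0.260% and 18.1% of the summits of a library. The windows are the bins Chr10:10800001-10900000, Chr4:9100001-9200000, Chr2:14200001-14300000, Chr8:9200001-9300000, Chr12:5600001-5700000, Chr1:33500001-33600000 and Chr6:23500001-23600000 of the rice genome sequence MSU version 7. They were selected on the number of summits in them and on how much that number varied between libraries, so density and variation are given as a description of the choice, with no test. A summit is the position of highest enrichment within a peak. The bins held 1274 of the 29684 summits on the 12 nuclear chromosomes. Summits of all libraries that lay up to 200 bp apart were merged into regions, and 562 of the 16253 regions of the series (3.46%) lay in the bins.

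The data came from seedlings 3 weeks old of the wild type (WT) and of H49, 1 transgenic rice line that over-expresses OsHOX24. For 3 h the control seedlings stayed in water and the desiccated seedlings on dry paper. An antibody to OsHOX24 was used for 8 ChIP libraries, 2 for each combination of genotype and treatment. WT seedlings carry the endogenous OsHOX24 gene, no library came from plants without the gene, and the labels do not name the promoter of the transgene. The 8 input samples were not analysed here. The labels do not say that replicates came from separate plants, so p-values cover the spread between libraries only, and that spread may be technical.

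OsHOX24 is a homeodomain-leucine zipper protein of subfamily I. Proteins of this family bind DNA as dimers, at short palindromes built from the core CAAT and its complement, and several of them act in plant responses to water deficit and abscisic acid. A transcription factor bound at such a site usually gives a narrow ChIP-seq peak. The DNA sequence and the genes of the 7 stretches were not analysed here.

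The nuclear part of a list held between 2172 and 9345 summits, and read depth is unknown. The median −log10 p of a list, the value that the peak caller attached to each summit, lay between 6.10 and 7.81 in 7 libraries and was 20.1 in WT desiccation replicate 2. This value grows with the number of reads, so heights were compared between libraries by percentile within a list. Raw values of several libraries are printed side by side as a description only. A place without a summit in a list is described as not called, which is not the same as not bound.

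The fullest libraries were nearly the same in every bin, while the order of the others varied. WT desiccation replicate 2 placed 394 summits there, 18.1% of its list, and H49 desiccation replicate 2 placed 327, or 13.9%. WT control replicate 2 followed with 283 summits (8.94%) and H49 desiccation replicate 1 with 158 (6.76%). H49 control replicate 2 held 59 (1.75%). The 3 lowest libraries had 29 summits (0.310%) in WT control replicate 1, 13 (0.483%) in WT desiccation replicate 1 and 11 (0.260%) in H49 control replicate 1. WT desiccation replicate 2 had the highest share in 7 of 7 bins and H49 desiccation replicate 2 the next highest in 7 of 7. WT control replicate 2 stood in the top 3 in 6 bins and H49 desiccation replicate 1 in the other one. This order is by share, and WT desiccation replicate 2 had the shortest list, with 2172 nuclear summits. By number of summits, WT control replicate 2 led on Chr4, with 65 against 60 in WT desiccation replicate 2 and 59 in H49 desiccation replicate 2. On Chr1, H49 desiccation replicate 2 led with 52 against 51 in WT desiccation replicate 2, which led in the other bins. WT desiccation replicate 1 was empty in 6 bins and H49 control replicate 1 in 5.

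**Figure D1:**
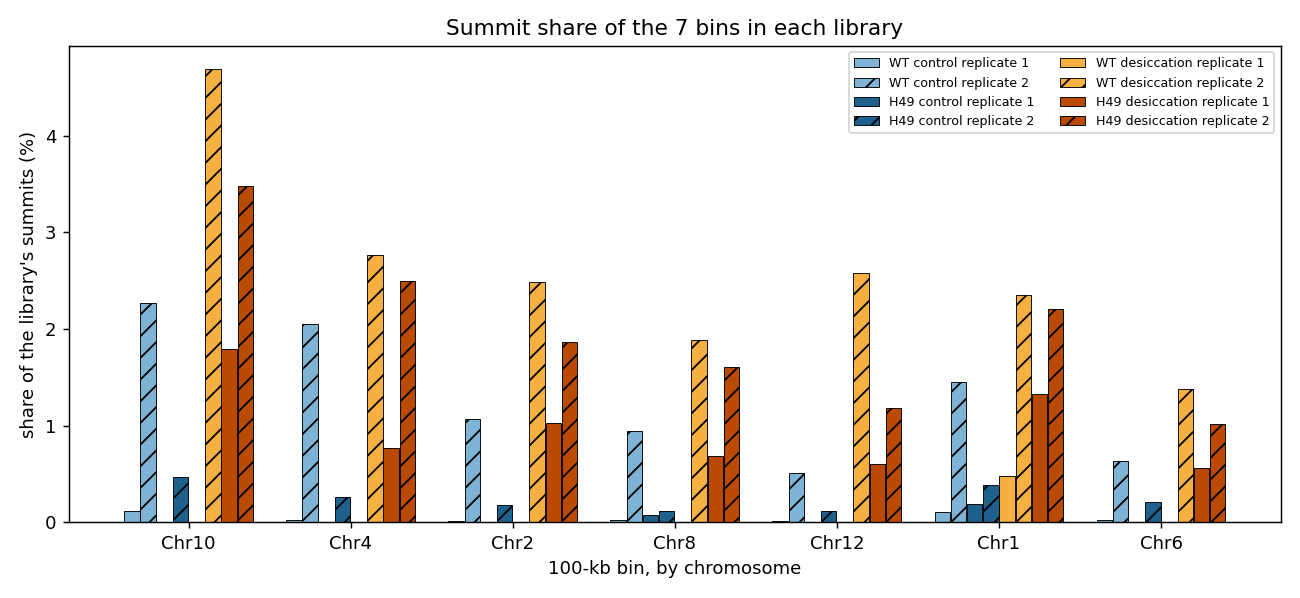
Share of a library's nuclear summits (percent, vertical axis) that fell in each of the 7 bins (horizontal axis, by chromosome), 1 bar per library; hatched bars are replicate 2 and colours mark genotype and treatment. The highest bar of every bin belongs to WT desiccation replicate 2, up to 4.70% on Chr10.

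The Chr10 bin was the fullest of all 100-kb bins of the genome, with 1.60% of a library's summits on average. In control it held 11 and 72 summits in WT replicates 1 and 2, and 0 and 16 in H49 replicates 1 and 2. Under desiccation it held 0 and 102 summits in WT and 42 and 82 in H49, in the same order. The Chr4 bin held 2 and 65 summits in WT control, 0 and 9 in H49 control, 0 and 60 in WT desiccation and 18 and 59 in H49 desiccation. In both bins replicate 2 was the higher library of every group, and control and desiccation libraries overlapped.

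On Chr2 the counts were 1 and 34 in WT control, 0 and 6 in H49 control, 0 and 54 in WT desiccation and 24 and 44 in H49 desiccation. The Chr8 bin held 2 and 30 summits in WT control, 3 and 4 in H49 control, 0 and 41 in WT desiccation and 16 and 38 in H49 desiccation. By share, both bins had the same order of the 4 fullest libraries as the Chr10 bin. On Chr12 there were 1 and 16 summits in WT control, 0 and 4 in H49 control, 0 and 56 in WT desiccation and 14 and 28 in H49 desiccation. This was the bin in which WT desiccation replicate 2 stood furthest ahead, at 2.58% of its list against 1.19% in H49 desiccation replicate 2.

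The Chr6 bin, the least dense of the 7, held 2 and 20 summits in WT control, 0 and 7 in H49 control, 0 and 30 in WT desiccation and 13 and 24 in H49 desiccation. The Chr1 bin differed in being called in all 8 libraries. It held 10 and 46 summits in WT control, 8 and 13 in H49 control, 13 and 51 in WT desiccation and 31 and 52 in H49 desiccation. Its coefficient of variation over libraries, 84.6%, was the lowest of the 7 bins, which reached 143% on Chr12.

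Replicate number went with the filling. In 7 of 7 bins replicate 2 had a higher share than replicate 1 in all 4 groups, whereas 7.65% of the 588 bins tested in the genome met the same criterion and 20.4% met the opposite one. The bins were chosen for their variation between these libraries, so this count is a description. The labels do not say what the replicate numbers stand for, and their part in the filling was not tested.

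Control and desiccation were set side by side bin by bin. The bins were selected on these shares, so the values are a description and no p is given for a bin of the 7. The share was higher on average under desiccation in 7 of 7 bins, but in no bin were the groups separated. On Chr10 the mean share was 2.49% ± 2.04 (SD, n = 4) under desiccation and 0.716% ± 1.06 in control, a difference of 1.78 percentage points that ran from 1.04 to 2.61 when 1 library was left out. On Chr1 the mean share was 1.59% ± 0.865 against 0.533% ± 0.624 (SD, n = 4 each). It was the one bin in which desiccation exceeded control in 4 of 4 pairs of equal genotype and replicate number. In the other 6 bins 3 of 4 pairs were higher by share, and the exception was WT replicate 1, in which the desiccation library was empty. Differences in those bins ranged from 0.524 points on Chr6 to 1.78 on Chr10. Shares depend on list length, and the desiccation lists, with 2172 to 2690 nuclear summits, were all shorter than the control lists, with 3166 to 9345. By count, WT replicate 2 on Chr4 held 65 summits in control and 60 under desiccation. With lists cut to equal length, the mean differences were 0.472 points on Chr6 and 1.60 on Chr10.

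None of the 7 bins had all desiccation libraries above all control libraries, against 2.21% of the 588 bins tested, and none had them all below, against 9.69%. Over all bins of the genome, an exact two-sided permutation test cannot give a p under 0.0286 with 4 libraries against 4. No bin passed after Benjamini-Hochberg adjustment over the 588 bins, while 70 (11.9%) had an unadjusted p under 0.05 in that test.

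The mean shares of the genotypes differed by less than the SD between libraries in each of the 7 bins. The mean share of H49 minus that of WT was between −0.335 points on Chr10 and −0.0633 points on Chr6. On Chr10 the means were 1.44% ± 1.56 in H49 and 1.77% ± 2.21 in WT (SD, n = 4 each). These are again values the bins were selected on, given with no p for a bin. The direction was not stable: without WT desiccation replicate 2 all 7 differences turned positive, up to 0.640 points on Chr10, and without H49 control replicate 1 they did so in 5 bins, to between 0.0851 and 0.208 points. All H49 libraries stood above all WT libraries in 0.340% of the bins tested, and below them in 0.510%, and the 7 bins were not among either. Of the 588 bins, 5 (0.850%) had an unadjusted p under 0.05 in the same exact permutation test and 0 an adjusted one. This does not show that the genotypes fill the bins alike.

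Summits filled all or part of each bin. A filled stretch was taken as a run of summits of any library with no gap over 10 kb and at least 10 summits, which gave 1 stretch for each bin. The longest was Chr10:10791034-10920769, of 129.7 kb and 413 summits, which runs past both ends of its bin. The last summit before it was 266.9 kb away and the next after it 58.9 kb. The stretch on Chr4, Chr4:9090220-9210079, was 119.9 kb long with 263 summits and also ran past both ends of its bin, with 137.2 kb and 158.3 kb free of summits on either side. On Chr1 the stretch Chr1:33498162-33589498 began just left of the bin, was 91.3 kb long and held 231 summits, with 113.6 kb and 16.5 kb free on either side.

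The other 4 stretches lay inside their bins. They were Chr2:14240198-14288987 (48.8 kb, 163 summits), Chr12:5609353-5658070 (48.7 kb, 119 summits), Chr8:9243109-9284090 (40.98 kb, 130 summits) and Chr6:23563464-23591572 (28.1 kb, 95 summits). The Chr2 stretch stood alone, with no summit of any library for 288.5 kb before it and 267.9 kb after it. Chr12 had 203.2 kb free on the left and 102.0 kb on the right. On Chr6 a single summit of WT control replicate 1, at −log10 p of 3.67, lay 24.6 kb to the left, and 122.6 kb were free on the right. Over the 7 stretches the density was 21.9 to 33.8 summits per 10 kb, all libraries together.

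**Figure D2:**
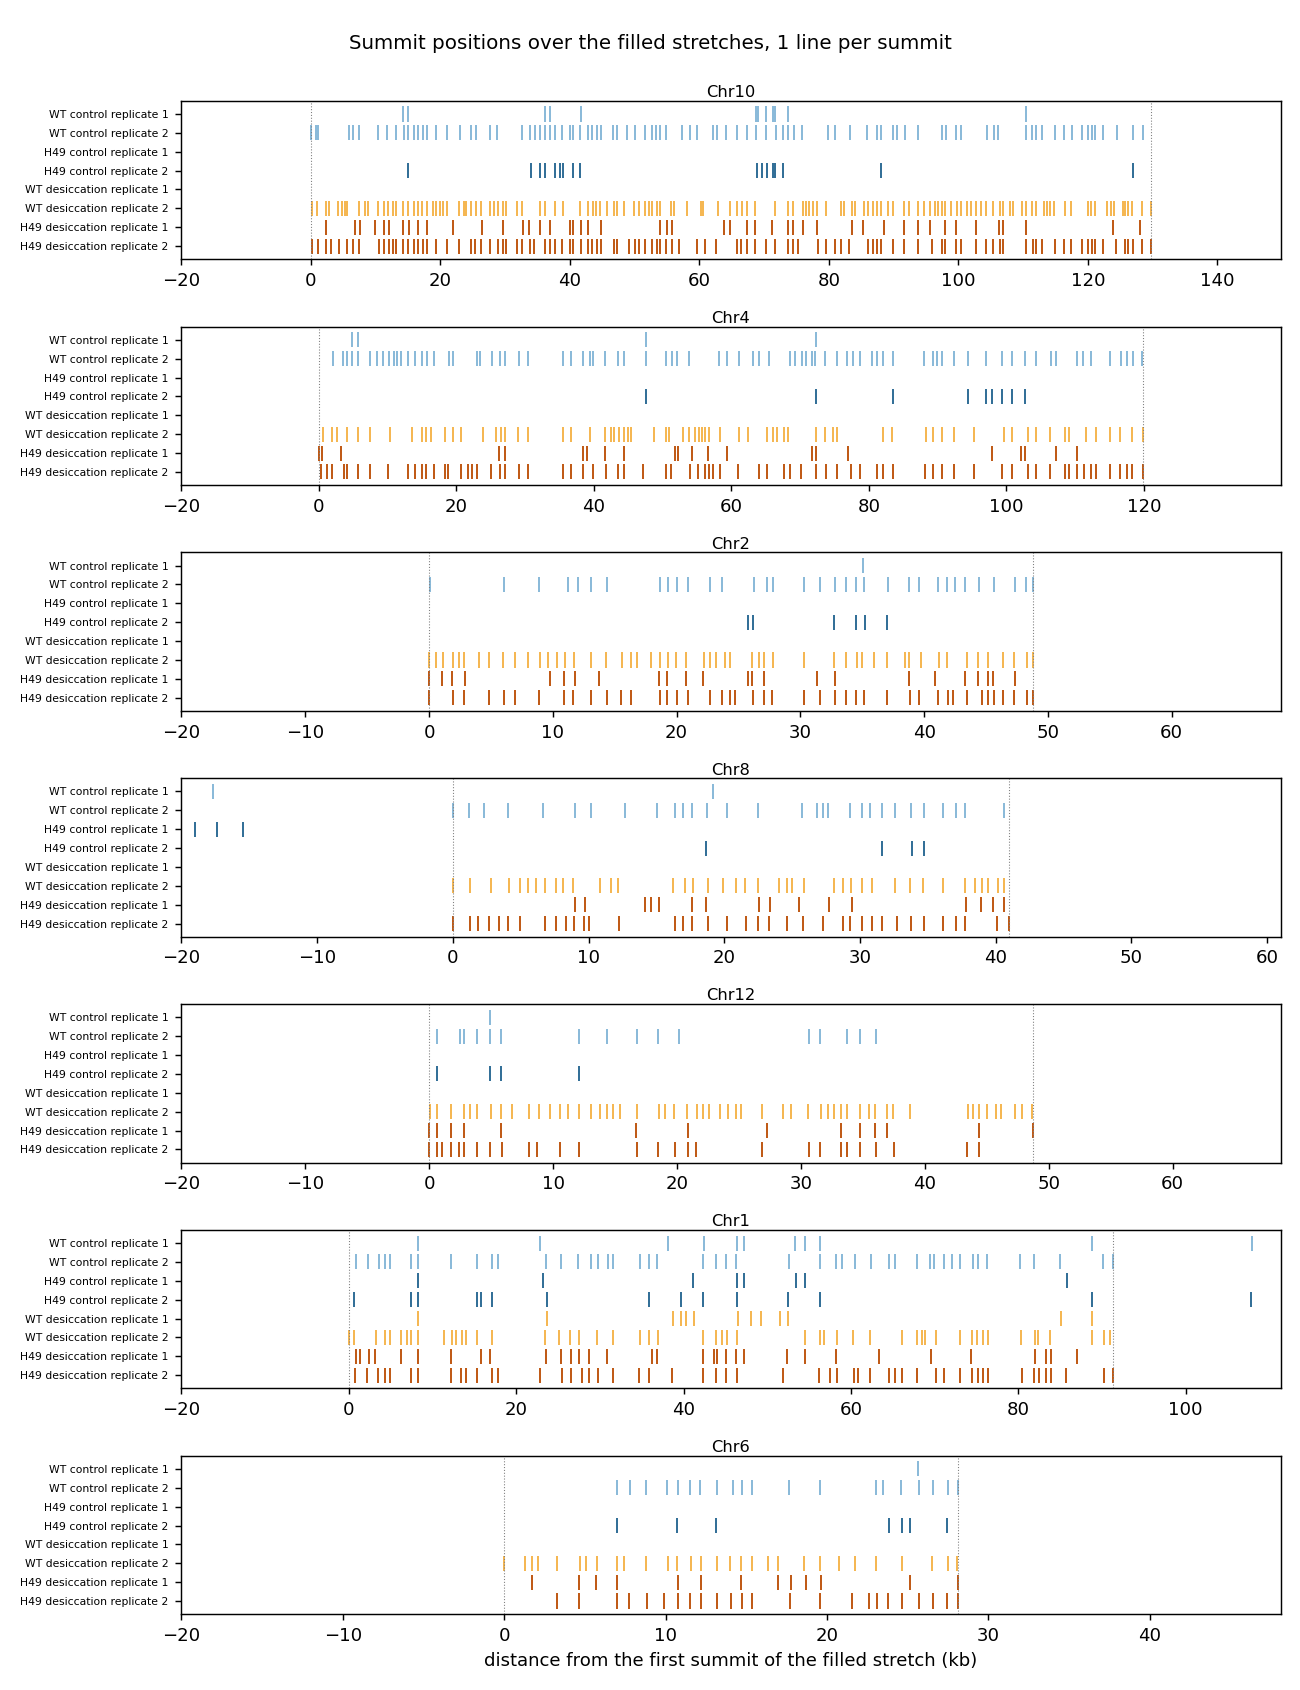
Position of each summit (vertical line) along the 7 filled stretches, 1 row per library and 1 panel per stretch; the horizontal axis is the distance in kb from the first summit of the stretch, and dotted lines mark its first and last summit. Replicate 2 of WT control and 3 desiccation libraries fill the stretches, while H49 control replicate 1 and WT desiccation replicate 1 have summits in the Chr1 stretch only.

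At some ends the libraries stopped within 100 bp of each other, and at others they did not. The left end of the Chr2 stretch was at 14240198 in WT desiccation replicate 2 and H49 desiccation replicate 1, at 14240230 in H49 desiccation replicate 2 and at 14240285 in WT control replicate 2. Its right end was at 14288955, 14288969 and 14288987 in WT desiccation replicate 2, WT control replicate 2 and H49 desiccation replicate 2, while the last summit of H49 desiccation replicate 1 was at 14287574. The first summit on Chr8 was at 9243109, 9243141 and 9243143 in those 3 libraries. The sparse library H49 desiccation replicate 1 began 9017 bp further in. On Chr12 the left ends of the desiccation libraries spread over 47 bp. At the right end they did not meet, since H49 desiccation replicate 2 stopped 4359 bp and WT control replicate 2, with 16 summits there, 12684 bp before it. The right end on Chr6 was at 23591509 to 23591572 in the 4 filled libraries, while their first summits there differed, the leftmost being at 23563464 (WT desiccation replicate 2) and the rightmost at 23570445 (WT control replicate 2).

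Inside the stretches, gaps empty in every library were located by taking all lists as one, so their emptiness follows from how they were found and only the flanking positions are informative. On Chr4 the summits before a gap of 5.02 kb were at 9120607, 9120611 and 9120623 in WT control replicate 2, WT desiccation replicate 2 and H49 desiccation replicate 2. The summits after it were at 9125651, 9125697 and 9125644 in the same libraries. H49 desiccation replicate 1 lay further off, at 9117344 before the gap and 9128580 after it. A gap of 4.597 kb further along began at 9173655, 9173623 and 9173661 in the 3 fullest libraries, in the same order, and at 9173665 in H49 control replicate 2. After that gap the summits were at 9178262, 9178534 and 9178434 in these 3, and at 9184557 in H49 control replicate 2. H49 desiccation replicate 1 again lay further off, at 9167137 and 9188143. On Chr12 and Chr1 some flanks agreed closely and others did not. Before the Chr12 gap of 4.602 kb the last summits were at 5648196 in WT desiccation replicate 2, 5646852 in H49 desiccation replicate 2, 5646306 in H49 desiccation replicate 1 and 5645386 in WT control replicate 2. The first summits after it were at 5652816, 5652798 and 5653730 in the first 3 of these, and WT control replicate 2 had none. Before the Chr1 gap of 5.01 kb they were at 33516036 in WT control replicate 2, 33516031 in H49 desiccation replicate 2 and 33515275 in WT desiccation replicate 2, and after it at 33521718, 33521048 and 33521656. H49 desiccation replicate 1 had 33514988 before the Chr1 gap and 33521775 after it. These were the 4 gaps over 4 kb inside the stretches in the joined list.

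Some summits in the windows belonged to no filled stretch, being too few. On Chr8, 3 summits of H49 control replicate 1 and 1 of WT control replicate 1 lay between 9224075 and 9227635, ending 15.5 kb before the stretch that the other libraries filled. They were the only summits of H49 control replicate 1 in that bin, at a median −log10 p of 5.28.

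In WT desiccation replicate 2 the median distance between neighbouring summits of the bins was 859 bp, with the middle 50% between 609 and 1357 bp, against a median of 38537 bp elsewhere in its list. H49 desiccation replicate 2 had a median step of 1098.5 bp and WT control replicate 2 one of 1176.5 bp, against 38584 and 20713 bp elsewhere. The step was longer in H49 desiccation replicate 1, at 1887 bp, which had fewer summits in the bins. On Chr10 its summits spanned 97.1 kb of the bin, near the 98.0 kb of WT desiccation replicate 2. The span was shorter on Chr4, at 81.0 against 98.7 kb, and on Chr8, at 31.6 against 40.6 kb. The smallest step in any of these libraries was 320 bp. In WT desiccation replicate 2, 89.1% of the steps were under 2 kb, compared with 30.8% outside the bins. Bins were picked for density, so short steps follow from the choice.

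The spread of summits along a bin was counted in pieces of 5 kb. Of the 20 pieces in the Chr10 bin, WT control replicate 2 and the 3 filled desiccation libraries each had a summit in all 20. H49 control replicate 2 reached 7 of them and WT control replicate 1 reached 5. On Chr4, the 3 fullest libraries again reached 20 pieces and H49 desiccation replicate 1 reached 10. On Chr12 WT control replicate 2 reached 8 pieces and WT desiccation replicate 2 reached 11.

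The height of the summits also depended on the library. In WT desiccation replicate 2 the median −log10 p was 33.2 in the bins and 12.3 elsewhere, and the medians of the 7 bins lay between 32.1 and 37.6. The middle 50% of its values in the bins ran from 27.2 to 42.0, and outside them from 6.09 to 35.9. H49 desiccation replicate 2 had a median of 12.4 in the bins and 7.17 elsewhere, and WT control replicate 2 had 9.45 and 6.96. As percentiles within the list, the median summit of the bins stood at 68.4, 71.4 and 67.7 in these 3 libraries. None of these libraries kept its strongest summit there: the highest value in the bins was 87.9, 82.2 and 106, and in the whole list 456, 271 and 291.

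Taken over the bins together, the summits of H49 desiccation replicate 1 were weaker than those elsewhere in its list, but this differed by bin. Their median −log10 p was 5.06, against 6.44 elsewhere, and their median percentile was 33.0. On Chr4 and Chr10 the medians of −log10 p were 3.81 and 4.20, close to the lowest value of the list, 3.01, whereas on Chr12 the median was 8.04. The median percentile was 8.27 on Chr4, 14.2 on Chr10, 37.1 on Chr2, 41.9 on Chr1 and 42.1 on Chr8. It was above the list middle on Chr6, at 57.9, and on Chr12, at 67.2. H49 control replicate 2, with fewer summits, had a median of 9.09 against 7.74 elsewhere. The bins held 24.5% of the strongest 25% of summits in WT desiccation replicate 2, 22.4% in H49 desiccation replicate 2 and 13.9% in WT control replicate 2, but 3.42% in H49 desiccation replicate 1. Of all nuclear summits they held 18.1%, 13.9%, 8.94% and 6.76% in these libraries, in the same order.

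**Figure D3:**
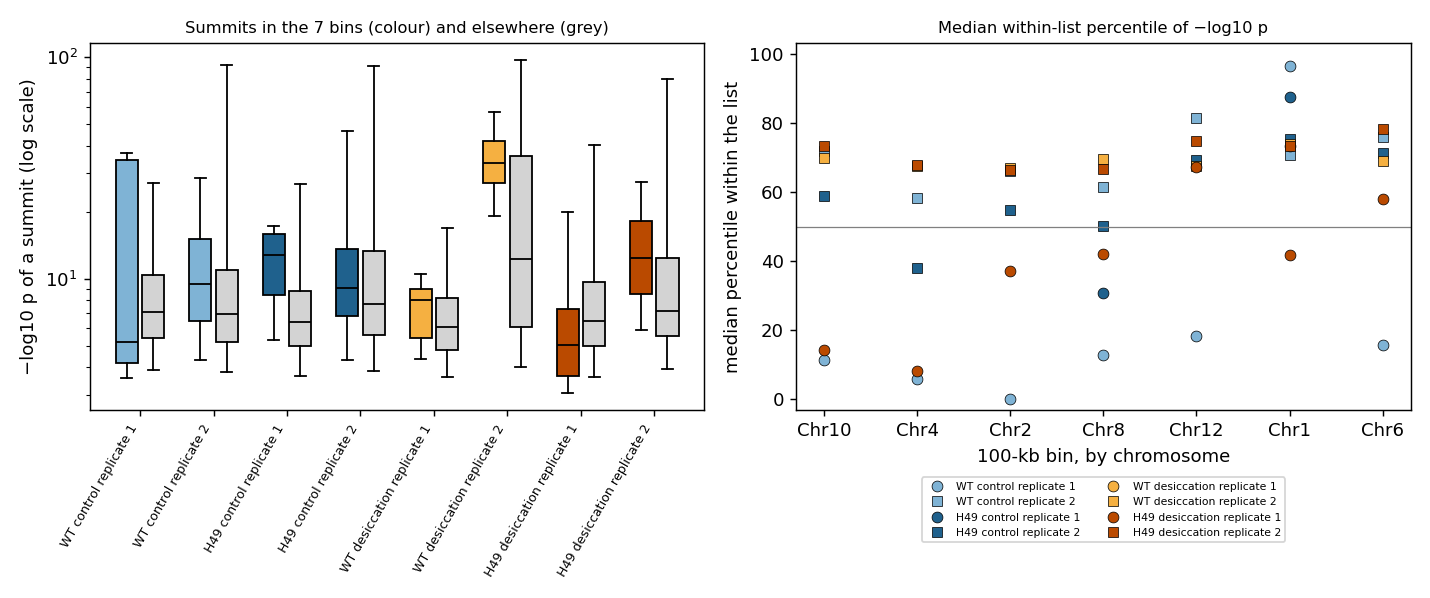
Left, −log10 p of summits in the 7 bins (coloured) and elsewhere (grey) per library on a log axis; boxes span the middle 50%, the line is the median and whiskers the 5th to 95th percentile. Right, median within-list percentile of the summits of each bin, 1 symbol per library with summits there (circles replicate 1, squares replicate 2), against the list middle at 50; H49 desiccation replicate 1 lies at 14.2 on Chr10 and WT desiccation replicate 2 at 69.9.

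Height was tested over libraries in bins called in all 8, which among the 7 was Chr1 alone; the other 6 bins, called in 6 or 7 libraries, were not tested. There the mean percentile of the summits was 67.9 ± 14.7 (SD, n = 8), above 50 in 7 of 8 libraries, with exact two-sided sign-flip p = 0.0156 and adjusted p = 0.0510 over 372 bins. It did not pass, while 24.5% of those bins passed above 50 and 1.88% below it. With equal numbers of the strongest summits from each list it passed, at adjusted p = 0.0236 in the same exact test. The mean stood 17.9 above 50 in both settings. Percentiles and the set of bins were taken anew there, and the share of bins that passed in that setting was not counted.

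Heights rose and fell together along the stretches in the 3 fullest libraries. Over regions of the bins called in both, Spearman's rho of −log10 p was 0.86 between WT control replicate 2 and H49 desiccation replicate 2 (225 regions), 0.80 between WT control replicate 2 and WT desiccation replicate 2 (189 regions) and 0.79 between the 2 desiccation libraries (250 regions). Outside the bins the same pairs gave 0.80, 0.79 and 0.84. H49 desiccation replicate 1 did not follow: in the bins its rho was 0.30 with WT control replicate 2 (88 regions), 0.11 with WT desiccation replicate 2 (105 regions) and 0.17 with H49 desiccation replicate 2 (95 regions), against 0.78 to 0.79 outside. H49 control replicate 2 gave 0.31 to 0.51 with the other 4 in the bins, over 25 to 49 regions. Regions of a stretch are neighbours and share their libraries, so they are not independent.

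Most regions of the bins were called in more than 1 library. Of the 562 regions, 204 (36.3%) were called in 1 library, against 64.6% of the regions of the series. A further 129 (23.0%) were called in 2 libraries, 139 (24.7%) in 3 and 68 (12.1%) in 4, against 16.2%, 7.89% and 4.10% in the series. In more than 4 libraries there were 22 (3.91%), against 7.13% in the series, made up of 15 in 5 libraries, 5 in 6 and 2 in 8. Regions common to all 8 libraries made up 1.68% of the series. Summits stood closer together in the bins, and dense summits merge within 200 bp more easily. These shares are therefore not like for like with those of the series. The commonest set of callers after WT desiccation replicate 2 alone (115 regions) was that library with WT control replicate 2 and H49 desiccation replicate 2, in 97 regions. H49 desiccation replicate 1 joined these 3 in another 43.

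**Figure D4:**
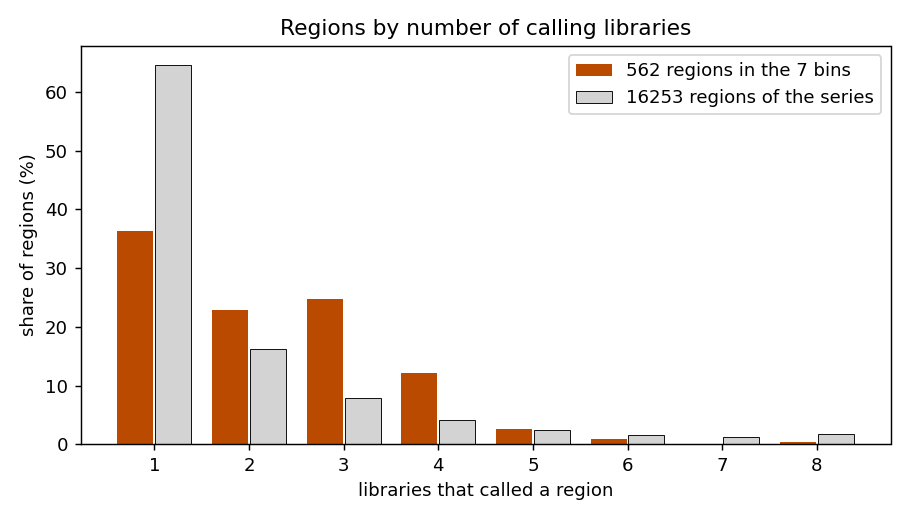
Share of regions (percent, vertical axis) by the number of libraries that called them (horizontal axis), for the 562 regions in the 7 bins and the 16253 regions of the series. In the bins 139 regions were called in 3 libraries and 2 in all 8.

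Sharing crossed genotype and treatment. WT control replicate 2 and H49 desiccation replicate 2 shared 225 regions of the bins, 79.5% of the former's and 68.8% of the latter's, against 34.6% and 48.96% outside. Their summits within 200 bp of each other lay a median of 21.5 bp apart. Median steps between summits were 1176.5 and 1098.5 bp in the bins in these libraries, against 20713 and 38584 bp elsewhere. Denser summits fall within 200 bp of each other more often by density alone. The percentages inside and outside are thus not like for like, and the part of density was not tested. The 2 replicates of H49 desiccation shared 95 regions, 60.5% of those in replicate 1 and 29.1% of those in replicate 2, against 39.0% and 41.9% outside. H49 control replicate 2 had 59 regions in the bins, of which 49 (83.1%) were called in WT control replicate 2, against 39.3% outside. The WT control replicates shared 18 regions, which was 64.3% of the 28 in replicate 1 and 6.36% of the 283 in replicate 2, against 15.7% and 50.96% outside.

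A region was counted as one-sided where 3 or 4 of the 4 libraries on a side called it and no library on the opposite side did. Of the 562 regions, 22 (3.91%) were called for desiccation alone, against 0.418% of all regions, and they made up 32.4% of the 68 such regions of the series. All 22 were called in the same 3 libraries, WT desiccation replicate 2 and both H49 desiccation replicates, and none in WT desiccation replicate 1. The rule needs 3 callers, so their number was 0 without any 1 of these 3 libraries, and it was 64 without WT control replicate 2. The bins were selected on summits of these same lists, so the count is a description. In the upper 50% of each list by −log10 p it was 7. One region was called for control alone, against 2.66% of all regions. None was one-sided for H49 or for WT, against 0.246% and 0.234% of all regions. Chr10 held 8 of the 22, Chr2 and Chr12 held 5 each, Chr1 held 2, Chr4 and Chr6 held 1 each and Chr8 none.

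Single regions were followed across libraries by their percentile within each list. On Chr10, Chr10:10832553-10832785 was called in 6 libraries, with summits within 32 bp of each other. Its −log10 p was 7.98 and 29.2 in WT control replicates 1 and 2, 7.48 in H49 control replicate 2, 58.9 in WT desiccation replicate 2, and 4.76 and 29.4 in H49 desiccation replicates 1 and 2. The percentiles of these values, in the same order, were 59.1, 88.8, 47.0, 87.9, 22.5 and 88.5, so the 3 fullest libraries placed it at close percentiles. H49 control replicate 1 and WT desiccation replicate 1 did not call it. Both other Chr10 regions with most callers, Chr10:10805878-10806209 and Chr10:10859497-10860143, had the same 6 callers. Their highest percentiles were 84.7 in WT control replicate 2 and 88.1 in H49 desiccation replicate 2, in that order. The stretch opened with Chr10:10790934-10791310, called in 3 libraries, and closed with Chr10:10920648-10920869, called in 2, both outside the window.

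On Chr4 the region with most callers was Chr4:9162318-9162641, in 6 libraries, at percentiles from 7.49 in WT control replicate 1 to 83.8 in WT control replicate 2. Chr4:9190884-9191196 and Chr4:9173523-9173765 were called in the 4 replicate 2 libraries and in no replicate 1 library. The stretch opened with Chr4:9090120-9090320, called in H49 desiccation replicate 1 alone, and closed with Chr4:9209906-9210179, called in 3 libraries. On Chr2, Chr2:14266206-14266539, Chr2:14275049-14275492 and Chr2:14272847-14273099 had 5 callers each. The second of them was the single place in that bin with a summit of WT control replicate 1, at −log10 p of 3.00. The stretch opened with Chr2:14240098-14240385 in 4 libraries and closed with Chr2:14288855-14289087 in 3.

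On Chr12 the 3 regions with 5 callers, Chr12:5615068-5615321, Chr12:5614168-5614416 and Chr12:5609845-5610077, lay close to its left end. The end regions were Chr12:5609253-5609500 and Chr12:5657889-5658170, called in 3 and in 2 desiccation libraries. The Chr8 region with most callers was Chr8:9261680-9261997, in 5 libraries, followed by Chr8:9277681-9277889, whose 4 summits lay within 8 bp, and Chr8:9276705-9277053. The Chr8 stretch opened with Chr8:9243009-9243243, called in 3 libraries, and closed with Chr8:9283990-9284190, called in 1. The Chr6 regions with most callers were Chr6:23570329-23570545 and Chr6:23574089-23574357, with 5 callers, and Chr6:23590806-23591038, with 4. The first region of that stretch was Chr6:23563364-23563564, called in WT desiccation replicate 2 alone, and the last was Chr6:23591409-23591672, called in 4 libraries.

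The Chr1 bin held both regions that all 8 libraries called. Chr1:33506323-33506572 had −log10 p of 46.6 and 106 in WT control, 20.1 and 59.5 in H49 control, 12.1 and 73.6 in WT desiccation and 26.0 and 82.2 in H49 desiccation. These values stood at percentiles 89.4 to 97.5 of their lists, and the summits lay within 49 bp. Chr1:33544326-33544827 stood lowest at percentile 84.6 in H49 desiccation replicate 1 and highest at 96.3 in WT control replicate 1. Its summits spread over 301 bp, more than the merging distance of 200 bp, so they were joined through summits in between. With merging at 50 bp, 1 region of the bins was called in all 8 libraries. Both regions stood at percentiles of 86.3 or more in WT desiccation replicate 1 and H49 control replicate 1, the libraries that left most other bins empty. The next region by callers, Chr1:33540373-33540656, was called in 6 libraries, at percentiles 3.60 to 88.6. The stretch opened with Chr1:33498062-33498262, left of the bin and called in WT desiccation replicate 2 alone, and closed with Chr1:33589364-33589598, called in 2 libraries.

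In WT control replicate 1 the Chr1 bin stood apart from the Chr10 bin. Its 10 summits on Chr1 had a median −log10 p of 36.3 and a median percentile of 96.6, whereas its 11 summits on Chr10 had a median of 4.52 and a percentile of 11.4.

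Other bins with at least 0.5% of a library's summits on average varied less between libraries. Of the 10 bins of the genome with at least 0.5% of a library's summits on average, 6 were among the 7, and the Chr6 bin, at 0.477%, lay just under that value. The other 4 were Chr12:13300001-13400000, Chr6:12500001-12600000, Chr1:39100001-39200000 and Chr4:32800001-32900000. They held 8 to 42 summits in every library, including the 3 lowest in the 7 bins. WT desiccation replicate 1, with 0 summits in 6 of the 7 bins, had 15, 11, 8 and 18 there. Their shares had coefficients of variation of 38.7% to 49.9%, against 84.6% to 143%. Of their 130 regions, 39 (30.0%) were called in all 8 libraries, against 2 of 562 (0.356%). The 7 bins were chosen for their variation, so no test of this contrast was made. The contrast depends on the cut, and it was lost once a lower cut took in Chr12:20600001-20700000, at a mean share of 0.446%. Among the bins ranked 12 to 16 by mean share, some varied as much as the 7. Coefficients of variation were 89.0% in Chr12:20600001-20700000 (mean share 0.446%), 118% in Chr9:1-100000 (0.432%) and 109% in Chr10:20400001-20500000 (0.399%). They were 55.2% in Chr12:13400001-13500000 (0.475%) and 35.9% in Chr12:8500001-8600000 (0.435%).

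**Figure D5:**
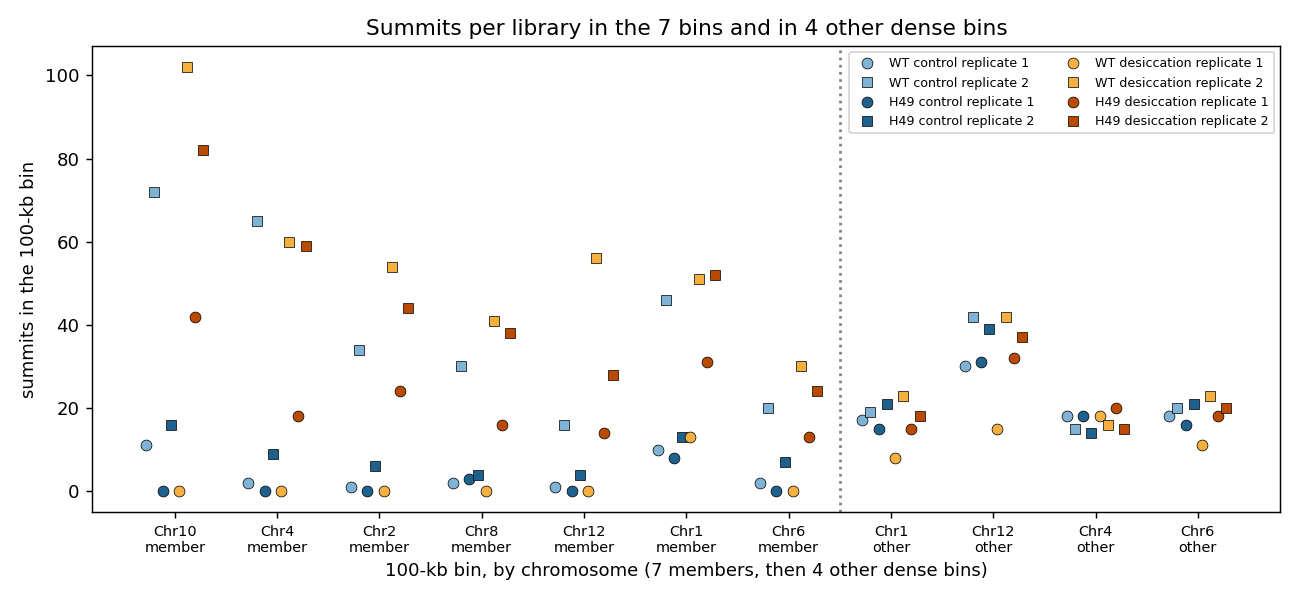
Summits per library (vertical axis) in the 7 bins and, right of the dotted line, in the 4 other bins holding at least 0.5% of a library's summits on average; circles are replicate 1, squares replicate 2, colours genotype and treatment. Libraries spread from 0 to 102 in the 7 bins and from 8 to 42 in the other 4.

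Flanking windows held summits mainly where a stretch crossed the border. Chr10:10900001-11000000 held 72 summits, 24 of them in WT desiccation replicate 2 and 19 in H49 desiccation replicate 2. Chr10:10700001-10800000 held 28, Chr4:9000001-9100000 held 26 and Chr4:9200001-9300000 held 24. Both neighbours of the Chr2 bin and of the Chr8 bin held 0 summits in all 8 libraries. The right neighbour of the Chr1 bin, Chr1:33600001-33700000, had another order, with 12 summits in WT control replicate 1, 10 in H49 control replicate 1 and 1 in WT desiccation replicate 2.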

How the data were processed

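Reads were filtered with NGS QC Toolkit and mapped to MSU version 7 with Bowtie2, and peaks were called with MACS2 (version 2.1.1.20160309), per the series' design text and the submitters' processing notes. The Bowtie2 version, the handling of reads that map to several places and the use of inputs in peak calling are not given in the sources used here. Whether the Bedops step named for confident peaks entered the lists is not given either. Each ChIP library has its own deposited list of 1-bp summits with a −log10 p-value per summit as the authors' peak caller wrote it. That unit was read from the format, from a lowest value close to 3 and from a tag in the peak names. In 2 lines the peak name was damaged and the position kept. Lists hold no read counts, so depth and counting error are unknown.

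From the lists, summits were counted in 100-kb bins as a percent of a library's nuclear summits and merged into regions (up to 200 bp apart, drawn with 100 bp on each side) with Python 3.11.15 and pandas 2.3.3. Bins with at least 16 summits over the 8 lists were tested with exact permutation tests, adjusted by the Benjamini-Hochberg method over 588 bins, at a threshold of 0.05. The height test covered bins called in all 8 libraries. The scripts were tested on simulated data. Members and comparisons were chosen with earlier results of these data known. The tests, their alternatives and the rule for named regions were written down with those results in view: the 3 regions of each bin called in most libraries, ties going to the higher mean percentile, and the first and last region of its filled stretch. Filled stretches were defined after the data were seen. No gene or sequence of the build was used.

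The main tests did not use the replicate numbers, and a fit with the number as a block was an alternative. The difference between replicates 2 and 1, taken over the 588 bins, correlated between every pair of groups, with r from 0.375 (H49 control with H49 desiccation) to 0.833 (WT control with WT desiccation). Without the 7 bins r was 0.212 to 0.54. The labels do not say what the numbers stand for, and whether they pair the libraries was not tested.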

Additional observations from a re-analysis of the deposited data

Results flagged for a closer look

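WT control replicate 2 stood apart from the other 3 control libraries in 3 bins, by its distance from the next library relative to the whole range. Its share was 2.05% on Chr4, 1.07% on Chr2 and 0.948% on Chr8, where the next control library, H49 control replicate 2, had 0.266%, 0.178% and 0.118%. WT desiccation replicate 2 stood apart from the other 3 desiccation libraries in the median −log10 p of its whole list, 20.1 against 6.10 to 7.71. Chance alone raises such a mark in about 1 in 20 groups that were not selected, a rate that does not apply to the shares, since the bins were chosen for their variation between these libraries, and the 4 libraries of a treatment mix both genotypes.

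Summits on the unplaced sequences ChrUn and ChrSy entered no comparison. They numbered 21 in WT desiccation replicate 2, 10 in WT control replicate 2, 9 in H49 control replicate 2, 5 in H49 desiccation replicate 2 and 4 in H49 desiccation replicate 1, and 1 to 3 in each of the other libraries. Replicate 2 had more of them than replicate 1 in all 4 groups, as in the 7 bins. What these summits share with those of the bins was not tested.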

How the results depend on the processing

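The number of bins past the adjusted threshold was 0 for treatment and for genotype under every alternative run, the replicate block included, whose smallest p over 4 pairs is 0.125. This says little about stability, since the exact tests are too small to pass. With the replicate block the count was 0 in both comparisons, and the block changed no call. The mean share was higher under desiccation in all 7 bins under every alternative. The bins were selected on these shares, so this is a description. WT desiccation replicate 2 and H49 desiccation replicate 2 led by share in all 7 bins, so the bins are not 7 separate results. Leaving out 1 library, the difference ran from 1.04 to 2.61 points on Chr10, 0.505 to 1.43 on Chr4, 0.649 to 1.48 on Chr2, 0.476 to 1.10 on Chr8, 0.437 to 1.30 on Chr12, 0.805 to 1.43 on Chr1 and 0.310 to 0.770 on Chr6. The difference of H49 from WT reversed on the log2 scale of summit counts on Chr2 (0.258), Chr8 (0.441), Chr12 (0.0416) and Chr6 (0.130). Leaving out 1 library at a time, it ran from −1.01 to 0.640 points on Chr10, −0.864 to 0.193 on Chr4, −0.491 to 0.406 on Chr2, −0.423 to 0.298 on Chr8, −0.555 to 0.304 on Chr12, −0.464 to 0.345 on Chr1 and −0.254 to 0.228 on Chr6. Regions in the bins numbered 397 to 738 over merging distances of 500 and 50 bp. Those called in all 8 libraries numbered 1 with 50 bp, and 2 or 3 otherwise. Desiccation-only regions numbered 7 in the upper 50% of each list and 0 to 64 without 1 library (0 without any of its 3 callers, since the rule needs 3). The single control-only region was lost (0) with merging at 50 or 500 bp, with equal list lengths and in the upper 50%, and the count was 0 to 2 without 1 library. Without 1 library the count was 0 to 2 for H49 and 0 to 1 for WT. The mean percentile on Chr1 stood 17.9 above 50 and passed with equal list lengths (17.9, adjusted p = 0.0236 in the exact test); the cause was not tested. It was 15.1 to 21.4 without 1 library, at adjusted p of 0.0589 to 0.101. A gap of 5 kb gave 9 filled stretches and one of 3 kb gave 14, settings added after the data were seen, as were those for the order of replicates, which held in 7 of 7 bins under each. Read depth is unknown and limits every absence: an uncalled place and an unbound one cannot be told apart.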

Other observations

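Bins outside the 7 were also full in some libraries and empty in others, and 2 of them are given here, chosen after their values were seen. Chr10:20400001-20500000 held 2 and 24 summits in WT control replicates 1 and 2, 0 in both H49 control libraries, 0 and 20 in WT desiccation and 13 and 22 in H49 desiccation. Chr9:1-100000 had another order among the filled libraries, with 36 and 19 summits in WT control, 0 and 22 in H49 control, 0 and 33 in WT desiccation and 1 and 6 in H49 desiccation. H49 control replicate 1 and WT desiccation replicate 1 were empty in both.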
